A study of Mus musculus with 9 samples.

Results

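The comparison described here is transient middle cerebral artery occlusion (tMCAO, a mouse model of ischemic stroke) against sham surgery, over every gene detected in the ischemic hemisphere. A gene was kept when 3 or more of the 9 libraries of the series held it at an FPKM (a fragment count divided by transcript length and library size) of 0.5 or above. This kept 16982 of 55385 gene rows, of which 13641 were protein-coding, 1259 long non-coding RNAs, 1363 pseudogenes and 719 of other types. Each group had 3 libraries of ribosomal RNA-depleted total RNA from male C57BL/6 mice aged 8 to 10 weeks, all operated on under sevoflurane. In the tMCAO group a coated filament blocked the right middle cerebral artery for 90 min and was then withdrawn, so that blood flow returned. The sham group had the same exposure of the neck arteries with no occlusion. The remaining 3 libraries of the series, from mice given celastrol at 4.5 mg/kg when blood flow returned, entered the filter and the shared estimate of the spread and no mean. The hours between reperfusion and sampling, the animals behind each library and any vehicle given are not stated in these sources. The p-values therefore describe only how these libraries vary, which may be technical.

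When an artery of the brain is closed, neurons in its territory lose oxygen and glucose, fire and release glutamate without control, and die first in the core and later around it. Dying cells release signals that microglia and astrocytes read through pattern recognition receptors. These glia then secrete chemokines and cytokines, the endothelium displays adhesion molecules, and neutrophils and monocytes enter the tissue. Astrocytes around the lesion thicken their intermediate filaments and lay down matrix that becomes the glial scar, while surviving neurons lower their synaptic and ion channel transcripts. A hemisphere also holds much tissue outside the territory of the middle cerebral artery, and its RNA is a mixture of all of these cells. In such bulk RNA, fewer cells of a type and less RNA per cell cannot be told apart.

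The 6 libraries held 60392960 to 72846548 estimated counts, with 25005 to 25731 genes counted in sham libraries and 25735 to 26976 in tMCAO libraries. The first principal component (40.0% of the variance) ran from −53.7 to −19.0 in sham and from 22.5 to 68.9 after tMCAO. The second (21.7%) put sham replicate 1 (45.4) and tMCAO replicate 2 (42.6) together, away from the other 4 libraries (−42.8 to −14.1). The same 2 libraries had the highest summed FPKM of 10 hippocampal markers (51.9 and 87.3, against 13.7 to 24.6 in the other 4) and of 10 thalamic markers (50.3 and 138, against 22.0 to 30.5). Striatal projection neuron markers summed to 71.2, 159 and 433 FPKM in sham replicates 1 to 3 and to 139, 81.3 and 293 in tMCAO replicates 1 to 3. Markers of the choroid plexus summed to 20.7, 3.65 and 26.4 FPKM in sham replicates 1 to 3 and to 190.2, 356 and 4.71 FPKM in tMCAO replicates 1 to 3, so that both high libraries were of the tMCAO group. Hypothalamic markers reached 174 FPKM in tMCAO replicate 1 and at most 3.02 elsewhere. The libraries thus differed in the brain regions whose markers they held, and the part of this in the comparison was not tested. Without sham replicate 1 and tMCAO replicate 2, the counts of genes at least 2-fold apart without overlap were 1087 higher and 447 lower, against 612 and 192 with all 6 libraries. Smaller groups can overlap more rarely. Higher genes numbered 575 without tMCAO replicate 1 and 877 without tMCAO replicate 2, and the cause of these differences was not tested.

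**Figure D1:**
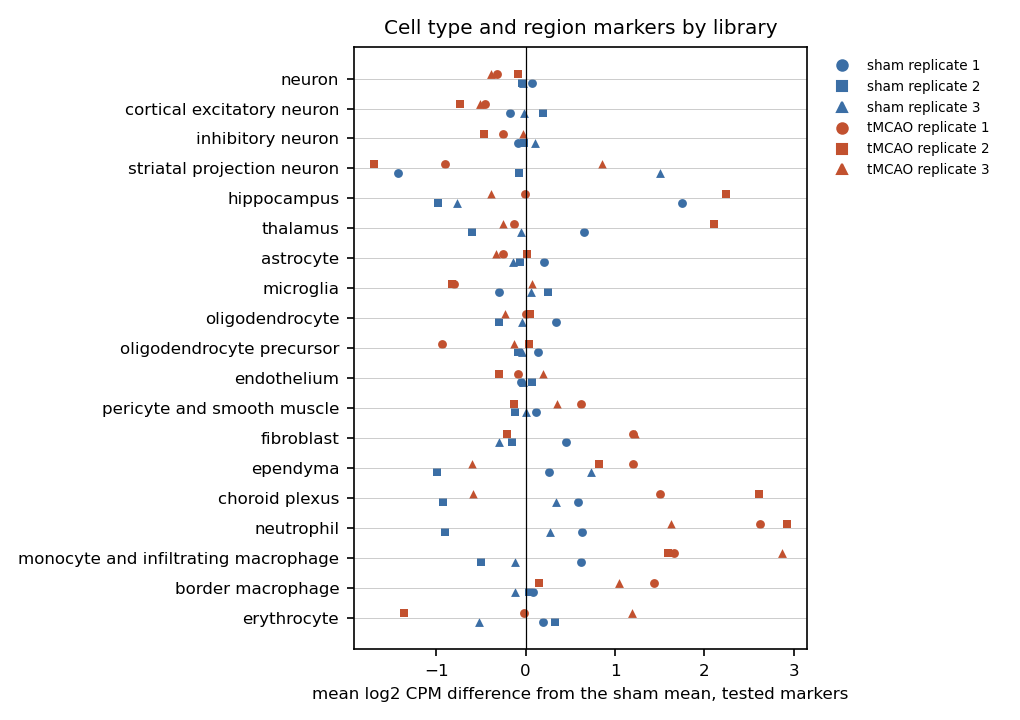
Each point is a library's mean difference in log2 CPM from the sham mean over the tested markers of 1 cell type or brain region (rows, lists with at least 5 tested members; blue, sham; orange, tMCAO; symbols, replicates). Neutrophil and monocyte markers lie to the right in the 3 tMCAO libraries, and hippocampal and thalamic markers stand out in sham replicate 1 and tMCAO replicate 2.

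Most genes differed little between the groups, and large gains outnumbered large losses. The median log2 fold change over the 16982 genes was 0.01 and the median size of a change was 0.23. Log2 fold changes of at least 1 were seen for 918 genes and of at most −1 for 328, and changes of at least 3 for 117 against 11 at or below −3. After Benjamini-Hochberg adjustment, the quasi-likelihood test of edgeR called 0 genes higher (0%) and 0 lower (0%), the smallest adjusted p being 0.0763. Without celastrol replicate 2, which entered neither mean of this comparison, edgeR called 81 higher and 10 lower. At an unadjusted edgeR p under 0.05 there were 1454 higher genes (8.56%) and 1080 lower genes (6.36%). DESeq2 with Benjamini-Hochberg adjustment called 557 higher (3.28%) and 279 lower (1.64%), of which 537 and 270 had no overlap between the groups. Since no gene passed the edgeR test, genes are described below as higher or lower after tMCAO, with their values, and by whether the 3 values of one group all lay above the 3 of the other.

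All 3 tMCAO libraries lay above all 3 sham libraries for 2110 genes (12.4%) and below them for 1884 (11.1%). With a change of at least 2-fold as well, 612 genes (3.6%) were higher and 192 (1.13%) were lower. The 612 genes together held 4651, 3709 and 3690 CPM (counts scaled to library size) in sham replicates 1 to 3 and 17091, 9998 and 14524 CPM in tMCAO replicates 1 to 3. The 192 lower genes held 6663, 10238 and 9416 CPM in sham and 3279, 3136 and 3922 CPM after tMCAO. Of the 612 genes, 235 had an FPKM under 0.5 in every sham library and entered the comparison through their level in the occluded groups. Among the 14507 genes that all 3 sham libraries held at 0.5 FPKM or above, 253 were higher and 171 lower by the same rule. The tMCAO libraries did not contribute alike: tMCAO replicate 1 was the highest of its group for 59.0% of the 612 genes and tMCAO replicate 2 the lowest for 62.9% of them.

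**Figure D2:**
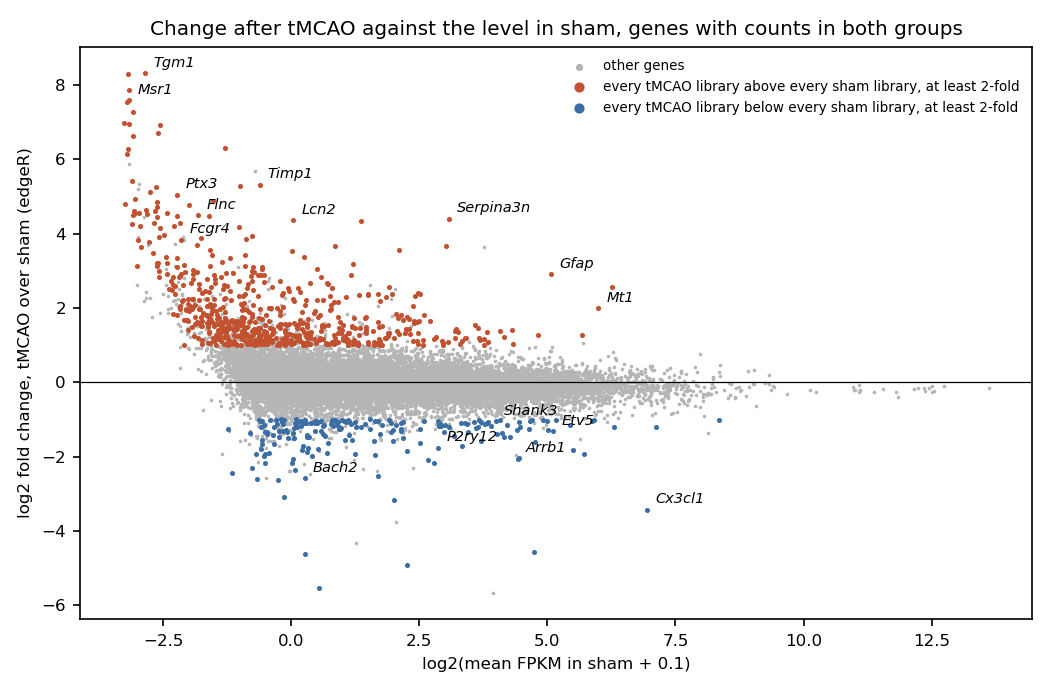
Each point is a gene with counts in both groups, placed by its mean FPKM in sham (x, log2 of FPKM + 0.1) and its log2 fold change in tMCAO over sham (y, edgeR). Coloured genes have groups that do not overlap and a change of at least 2-fold (orange, higher; blue, lower), and the largest gains sit at the left, where the sham level that sets x is also the small denominator of the fold change.

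The 15 leading higher genes, taken by the smallest edgeR p among genes whose groups did not overlap, were led by receptors and secreted proteins of myeloid cells and of reactive astrocytes. Fcgr4 (mm10, chromosome 1, 171018920 to 171029761, plus strand), an activating receptor for immunoglobulin G on myeloid cells, lay at 0.167, 0.22 and 0.208 CPM in sham and at 2.01, 2.63 and 3.93 CPM after tMCAO. Its log2 fold change of 3.84 ± 0.39 (SE) had the smallest edgeR adjusted p of all genes, 0.0763. Ms4a6d, a membrane protein of monocytes and macrophages, lay at 1.06, 0.693 and 0.951 CPM in sham and 10.7, 7.44 and 21.1 CPM after tMCAO (3.85 ± 0.51, SE, edgeR adjusted p 0.0907). Gpr84, a receptor for medium-chain fatty acids on activated myeloid cells, was even across the sham libraries at 0.475, 0.507 and 0.467 CPM and reached 4.63, 2.55 and 5.46 CPM after tMCAO. For these 3 genes the lowest tMCAO library stood well above the highest sham library.

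Cd244a, a receptor of the signalling lymphocyte activation family, had 4 counts in all of sham and 610 after tMCAO (0, 0 and 0.0692 against 2.13, 2.6 and 4.12 CPM). Cd300lf, an inhibitory receptor of myeloid cells that also binds lipids of dying cells, lay at 0.363, 0.101 and 0.0692 CPM in sham and 5.21, 3.76 and 3.94 CPM after tMCAO. It overlaps Rab37 on the other strand, and because nothing states that strand was used in counting, its level is uncertain. Ms4a6c (0.782, 0.625 and 0.467 against 3.28, 3.35 and 7.29 CPM) and the long non-coding row BE692007 (0.53, 0.896 and 0.605 against 3.13, 3.29 and 5.85 CPM) cover the same stretch of chromosome 19 on opposite strands, so reads of the one cannot be told from reads of the other. Ifi30, which encodes a lysosomal thiol reductase used in antigen processing but carries only non-coding transcript types in the deposited table, went from 1.97, 1.67 and 2.2 to 8.61, 5.3 and 12.3 CPM.

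Among secreted products, Serpina3n (mm10, chromosome 12, 104406729 to 104414329, plus strand), a protease inhibitor of reactive astrocytes, stood at 28.5, 18.7 and 13.1 CPM in sham and 572, 214 and 493 CPM after tMCAO. Lcn2, the siderophore-binding lipocalin 2, lay at 4.51, 1.86 and 2.21 CPM in sham and at 108, 31.6 and 37.9 CPM after tMCAO, where replicate 1 held more than the others together. Ptx3, a soluble pattern recognition protein, had close values within each group, 0.391, 0.321 and 0.398 CPM in sham and 16.4, 9.37 and 11.1 CPM after tMCAO (5.05 ± 0.77, SE). With edgeR fitted to the 6 libraries alone, its adjusted p was 0.013, the smallest of the 30 leading genes in that fit. Ccl4, a chemokine that draws monocytes, had 0 counts in sham and 637 after tMCAO (2.61, 1.62 and 5.09 CPM), at least 204-fold higher against a floor of 3 counts over the sham group.

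The leading higher genes also held structural and vascular genes. Pdlim4, an adaptor of the actin cytoskeleton, lay at 3.95, 3.36 and 4.58 CPM in sham and 21.4, 18.4 and 15.1 CPM after tMCAO (2.21 ± 0.32, SE, edgeR adjusted p 0.0907), with the narrowest tMCAO range of this set, as a ratio, after Cd300lf. Icam1 (mm10, chromosome 9, 21015985 to 21028817, plus strand), the endothelial ligand on which leukocytes arrest, went from 2.07, 1.94 and 1.42 to 22.5, 7.4 and 11.7 CPM and shares its locus with the antisense row Gm47079. Slc26a10, which overlaps B4galnt1 on the other strand, went from 1.93, 2.37 and 3.75 to 12.9, 12.4 and 8.54 CPM. tMCAO replicate 2 was the lowest of its group for 9 of the 15 genes and the highest for 0, while replicate 1 was the highest for 7 and replicate 3 for 8.

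**Figure D3:**
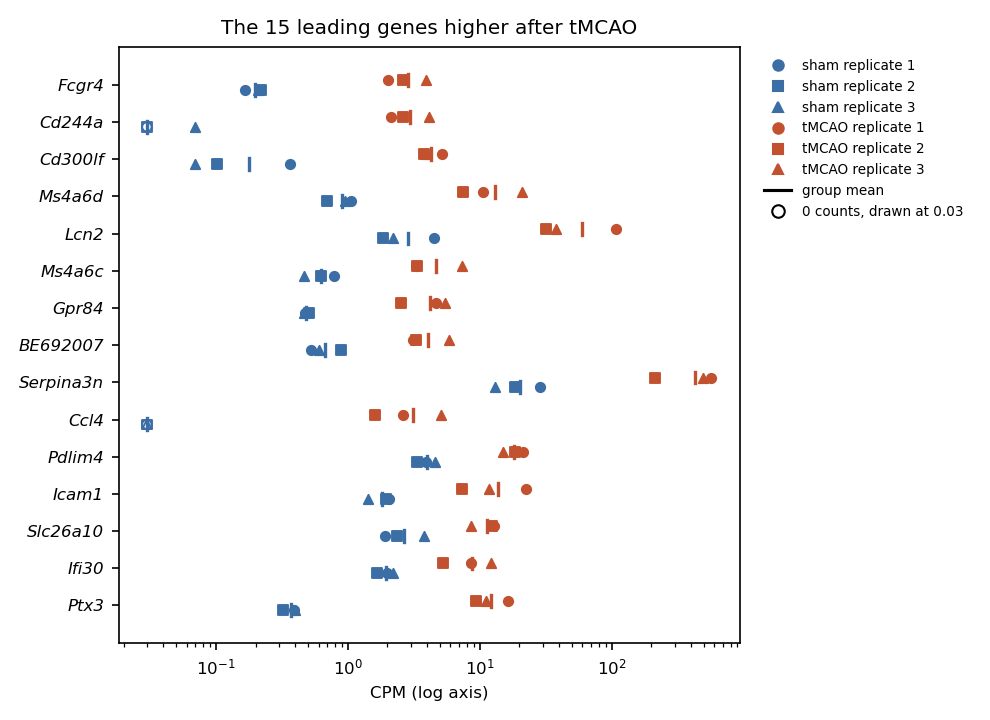
CPM on a log axis for the 15 leading genes higher after tMCAO (blue, 3 sham libraries; orange, 3 tMCAO libraries; bars, group means; open symbols, 0 counts). In each row the orange symbols lie to the right of the blue ones with no overlap.

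The 15 leading lower genes were more abundant and changed by less, and they held signalling and postsynaptic genes of neurons, a purine receptor of microglia and the neuronal chemokine Cx3cl1. Many leading higher genes were scarce in sham, such as Fcgr4 and Cd300lf (means of 0.125 and 0.0284 FPKM). Such genes passed the filter through libraries of occluded mice and have a small denominator, which limits this contrast between the 2 sets. Arrb1 (mm10, chromosome 7, 99535466 to 99606771, plus strand), which encodes beta-arrestin 1, the adaptor that silences and internalises G protein-coupled receptors, lay at 235, 289 and 316 CPM in sham and 85.6, 58.2 and 58.2 CPM after tMCAO (−2.06 ± 0.23, SE, edgeR adjusted p 0.0907). Mical2, an oxidoreductase that depolymerises actin, lay at 372, 533 and 488 CPM in sham and at nearly one value after tMCAO, 232, 225 and 229.8 CPM (−1.02 ± 0.14, SE). Shank3, a scaffold of the excitatory synapse, went from 143, 193 and 179 to 72.8, 92.6 and 84.1 CPM. Ephb1, a receptor for ephrin-B guidance cues, differed little within a group, 59.2, 56.4 and 60.1 CPM in sham and 33.1, 36.8 and 31.9 CPM after tMCAO (−0.79 ± 0.13, SE). Small changes thus led this set where the libraries of a group agreed closely, as they also did for Acbd5, a peroxisomal membrane tether (59.9, 57 and 57.8 against 33.1, 36.5 and 29.3 CPM), and Fxyd7, a brain regulator of the sodium pump (37.8, 37.8 and 31.3 against 17.4, 19.5 and 16.6 CPM).

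Nuclear factors were among the lower genes. Bach2 (mm10, chromosome 4, 32238804 to 32586104, plus strand), a transcriptional repressor, differed by the largest ratio of the set after Cx3cl1, with 12.4, 14.1 and 12 CPM in sham and 2.58, 1.51 and 2.34 CPM after tMCAO (−2.59 ± 0.39, SE). Etv5, an ETS factor whose transcript follows fibroblast growth factor and ERK signalling, lay at 129.96, 180.2 and 192 CPM in sham and 69.96, 51.4 and 79.5 CPM after tMCAO. Hivep1, a zinc finger factor, lay at 106, 126 and 123 against 85.3, 66.6 and 70.02 CPM (−0.68 ± 0.12, SE), the smallest change among the 30 leading genes. P2ry12, the purine receptor that steers microglial processes, went from 18.2, 24.4 and 22.2 to 7.13, 6.06 and 6.0 CPM and lies inside Med12l on the other strand. The set also held 1110008P14Rik (70.8, 79.3 and 67.7 against 42.8, 39.4 and 35.4 CPM, opposite Ciz1), the predicted genes Gm45844 (5.64, 7.33 and 5.85 against 2.39, 2.45 and 2.78 CPM) and Gm21955 (13.2, 16.9 and 19.4 against 5.37, 7.64 and 7.52 CPM), and the long non-coding row Gm15721.

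Cx3cl1 (mm10, chromosome 8, 94772009 to 94782427, plus strand), the membrane-bound chemokine by which neurons signal to microglia, showed the largest loss of the set. It lay at 648, 933 and 128 CPM in sham and 38.8, 56.1 and 64.4 CPM after tMCAO, a log2 fold change of −3.42 ± 0.64 (SE, edgeR adjusted p 0.106). The groups did not overlap, but sham replicate 3 lay far below the other 2 sham libraries and about 2-fold above the highest tMCAO library. Leaving out 1 library at a time moved the fold change between −3.90 and −2.87. All 30 leading genes kept their direction in each of the 22 other settings run, all 30 passed the DESeq2 test (adjusted p under 0.05) and 9 passed edgeR on the 6 libraries alone.

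**Figure D4:**
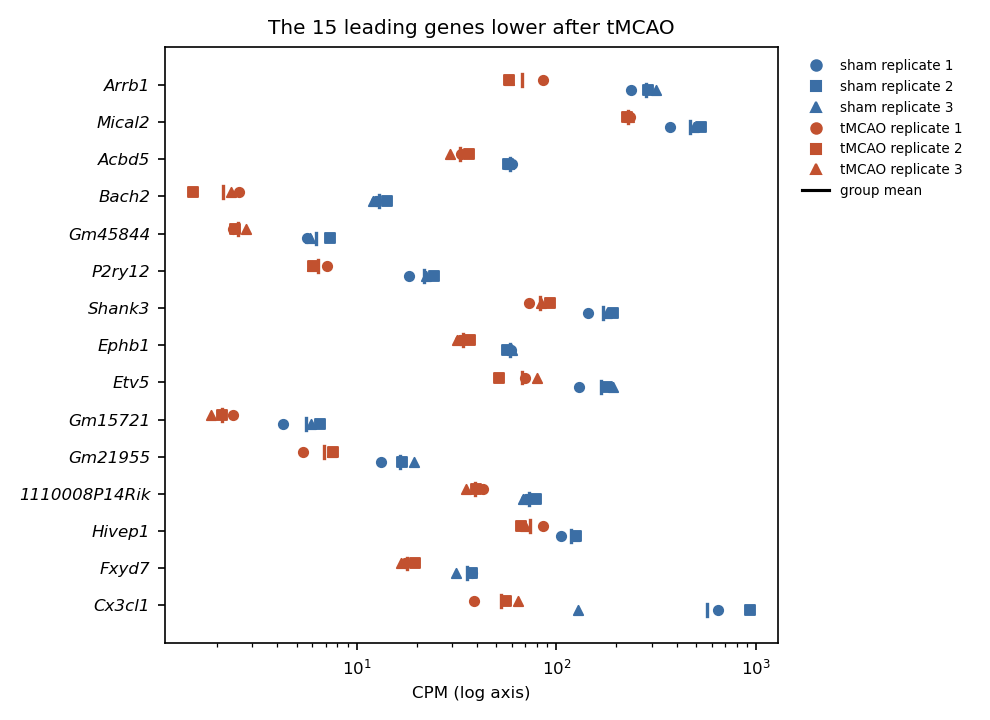
CPM on a log axis for the 15 leading genes lower after tMCAO (blue, 3 sham libraries; orange, 3 tMCAO libraries; bars, group means). The orange symbols lie to the left of the blue ones in each row, with sham replicate 3 of Cx3cl1 nearest to the tMCAO values.

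Promoters of the leading genes were searched on both strands, in the 250 bases before the transcription start, for 8 elements of stress and inflammatory transcription factors and of the basal promoter. RefSeq (GRCm38.p6, the same assembly as mm10) gave a start within 500 bases of the deposited gene start for 12 of the 15 higher and 9 of the 15 lower genes. For the kappaB element bound by NF-kappaB, only 1 exact form was searched, with no variable letters. That form was in 0 of these windows (0.14% of 32851 promoters of all genes). Other forms of the kappaB element were not searched, so this count does not show whether these promoters, Icam1 included, hold a kappaB site. The cyclic AMP response element TGACGTCA was in 0 windows as well (1.55% of all promoters). The STAT3 element TTCCNGGAA was in 1 of the 12 higher genes, Icam1, 42 bases before the start (0.913% of all promoters). The AP-1 element TGACTCA was in 1, Cd244a (4.46% of all promoters and 3.01% of those of 10079 tested genes). The antioxidant response element TGACNNNGC was in Cd244a and in 4 of the 9 lower genes, Mical2, Acbd5, P2ry12 and Shank3 (10.2% of all promoters). The windows of 3 genes are shown because they hold some of these matches in genes at both ends of the comparison. Matched letters are in capitals. Icam1 (chr9:21015690-21015939, plus strand) holds TTCCNGGAA. Cd244a (chr1:171558943-171559192, plus strand) holds the reverse complements of TGACTCA and TGACNNNGC and the E-box CACGTG. Shank3 (chr15:89499358-89499607, plus strand) holds the reverse complement of TGACNNNGC. A match describes these letters only and shows no binding.
Icam1: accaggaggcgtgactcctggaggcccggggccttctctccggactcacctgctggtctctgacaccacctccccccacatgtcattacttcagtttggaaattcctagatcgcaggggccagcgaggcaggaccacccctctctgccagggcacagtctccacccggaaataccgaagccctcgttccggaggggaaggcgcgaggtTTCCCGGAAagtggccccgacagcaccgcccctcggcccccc
Cd244a: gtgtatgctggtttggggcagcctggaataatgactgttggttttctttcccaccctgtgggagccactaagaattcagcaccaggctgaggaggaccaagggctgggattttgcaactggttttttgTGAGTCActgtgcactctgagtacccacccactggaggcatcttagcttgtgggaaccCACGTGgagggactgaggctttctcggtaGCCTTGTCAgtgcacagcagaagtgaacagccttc
Shank3: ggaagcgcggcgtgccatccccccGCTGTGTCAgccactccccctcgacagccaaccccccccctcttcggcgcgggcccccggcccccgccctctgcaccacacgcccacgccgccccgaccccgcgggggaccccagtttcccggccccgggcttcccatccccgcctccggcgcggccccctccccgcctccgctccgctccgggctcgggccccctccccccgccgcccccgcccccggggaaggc

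The genes were then grouped by role in lists written for this tissue and injury, with some genes in several lists. For each list the count of members whose groups did not overlap is given. Its background over all genes was 12.4% higher and 11.1% lower, with a median log2 fold change of 0.01. Where members expressed in all sham libraries (at least 0.5 FPKM) are counted, the background is that of the 14507 such genes. Of these, 11.1% were higher and 12.7% lower, with a median of −0.02. Of the 24 chemokine genes 16 passed the filter, and their median was 4.34. All 3 tMCAO libraries exceeded sham for 12 of the 16 and lay below it for 2, Cx3cl1 and Cxcl14 (the latter, at 96.7, 106 and 98.5 CPM in sham and 56.1, 75.1 and 84.1 CPM after tMCAO, is named here after its values were seen). Only 4 of the 16 reached 0.5 FPKM in all sham libraries, with a median of −0.76, so most of this list passed the filter through libraries of occluded mice. Ccl3, a neutrophil and monocyte attractant, lay at 0.126, 0.0676 and 0 CPM in sham and 10.3, 2.42 and 8.62 CPM after tMCAO. Ccl7 had 0 counts in sham and 4.54, 1.12 and 4.12 CPM after tMCAO, at least 217-fold higher by the floor of 3 counts over the group. Ccl12, a ligand of the monocyte receptor Ccr2, reached 5.22, 3.24 and 21.5 CPM from 0.154, 0.287 and 0.329 CPM, most of it in replicate 3.

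Cytokines and growth factors had 20 of 28 members tested, a median of 1.51, 15 members above sham in every library and 1 below, Bdnf, a neuronal growth factor (23.7, 30.6 and 35.1 against 21.3, 18.4 and 17.5 CPM, named after its values were seen). Over the 10 members expressed in all sham libraries the median was 0.65. Il1rn, which encodes the natural antagonist of the interleukin 1 receptor, had 0 counts in sham and 925 after tMCAO (7.15, 2.12 and 3.85 CPM), at least 296-fold higher by the same floor. Csf3, the granulocyte colony-stimulating factor, also had 0 counts in sham but was carried by 1 library after tMCAO (9.29, 0.996 and 0.0619 CPM). Clcf1, a ligand of the ciliary neurotrophic factor receptor, went from 1.45, 1.39 and 1.23 to 10.4, 5.02 and 9.59 CPM, and Hbegf, a ligand of the epidermal growth factor receptor, from 7.82, 9.43 and 13.2 to 45.1, 27.9 and 30.03 CPM. Il1a, the alpha form of interleukin 1, stayed near its sham level in tMCAO replicate 2 (0.53, 0.743 and 0.398 against 3.89, 1.09 and 2.17 CPM). The tMCAO replicates differed less, as a ratio, for Hbegf and Clcf1 than for Csf3.

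Innate immune receptors had 22 of 35 members tested, and all 22 had positive fold changes (median 2.52, or 1.29 over the 8 members expressed in all sham libraries). For 17 of the 22 the groups did not overlap. Msr1, a scavenger receptor for modified lipoproteins and debris, lay at 0.209, 0.0676 and 0 CPM in sham and 18.6, 7.71 and 31.5 CPM after tMCAO, and Pirb, an inhibitory receptor for major histocompatibility class I molecules, at 0.53, 0.642 and 0.311 and 3.33, 1.48 and 3.64 CPM. In the leukocyte recruitment list, 9 of 14 tested members were above sham in every library and 1 was below, Selplg, the ligand of the selectins (22.8, 21.6 and 22.8 against 6.48, 11.6 and 13.8 CPM). The median was 1.37, or 0.20 over the 6 members expressed in all sham libraries. C5ar1, the receptor of complement fragment C5a, went from 0.544, 0.422 and 0.277 to 4.3, 4.48 and 2.34 CPM, and Itgb2, the beta 2 integrin chain shared by leukocytes, from 4.72, 6.59 and 6.9 to 15.4, 11.1 and 17.5 CPM. Ccr1, a receptor of Ccl3 and Ccl7, went from 0.265, 0.203 and 0.138 to 7.58, 1.33 and 6.14 CPM, and Selp, the endothelial P-selectin, from 0.307, 0.0676 and 0.138 to 3.54, 1.37 and 1.59 CPM. The tMCAO values ran lowest in replicate 2 for Msr1, Pirb, Itgb2, Ccr1 and Selp.

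Summed markers of neutrophils and of monocytes were higher in every tMCAO library than in sham, while those of lymphocytes and erythrocytes overlapped. The 15 neutrophil markers summed to 4.91, 2.68 and 3.79 FPKM in sham and to 31.1, 22.7 and 17.2 FPKM after tMCAO, with 8 of them tested and 5 not overlapping. The defining neutrophil markers Ly6g and Elane were at 0 counts in all 6 libraries. The 10 markers of monocytes and infiltrating macrophages summed to 7.47 to 11.3 FPKM in sham and 13.2 to 33.3 FPKM after tMCAO, with 5 of 7 tested members not overlapping, among them Chil3 (0.209, 0 and 0.0692 against 2.95, 1.63 and 5.6 CPM) and Arg1 (0.0977, 0 and 0 against 6.91, 0.553 and 19 CPM). At 0.5 FPKM or more in all sham libraries were 2 of the 8 neutrophil and 3 of the 7 monocyte markers tested, of which 1 and 2 did not overlap, and the others passed the filter on low values through other libraries. Lymphocyte markers stayed between 0.286 and 3.10 FPKM in sham and between 0.401 and 2.59 FPKM after tMCAO, with 1 of 10 tested. Erythrocyte markers summed to 198 to 358 FPKM in sham and 127 to 688 FPKM after tMCAO, a wider range within the tMCAO group than in sham. The part of these cells in the receptor and cytokine values was not tested.

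Inflammatory transcription factors and the feedback inhibitors they induce had a median of 1.09 over 23 of 25 members, with 13 above sham in every library and 1 below, the AP-1 factor Fosl2 (40.4, 43.7 and 84.3 against 37.5, 34.1 and 35.7 CPM, named after its values were seen). Over the 16 members expressed in all sham libraries the median was 0.95, with 8 above and 1 below. Socs3, which ends signalling through STAT3, lay at 5.74, 3.65 and 4.0 CPM in sham and 57.6, 20.01 and 33.6 CPM after tMCAO (3.05 ± 0.55, SE, edgeR adjusted p 0.1). Atf3, a stress-induced bZIP factor, lay at 0.921, 0.541 and 1.52 against 20.4, 13 and 20.3 CPM. Cebpd (4.72, 3.04 and 2.75 against 26, 14.6 and 14.9 CPM), Bcl3 (0.6, 0.253 and 0.0865 against 7.23, 4.58 and 5.89 CPM) and Nfkb2 (2.23, 2.53 and 3.23 against 13.9, 6.23 and 8.45 CPM), a factor of the acute phase and a coactivator and a subunit of NF-kappaB, moved the same way, and all 3 have a gene on the opposite strand. The enzymes and receptors of prostaglandins and leukotrienes moved less (median 0.34 over 18 of 25 members, 5 above sham and 0 below). Over the 15 expressed in all sham libraries the median was 0.20, with 3 above. Alox5ap, which presents arachidonic acid to the enzyme of leukotriene synthesis, went from 3.2, 2.94 and 2.53 to 4.66, 6.3 and 7.43 CPM, and Ptgs2, the inducible cyclooxygenase, from 12.7, 18.2 and 17 to 46.9, 24.9 and 24.2 CPM. Without tMCAO replicate 2 the lipid mediator median was 0.53.

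Genes of the glial scar and of intermediate filaments were higher after tMCAO throughout. All 25 were tested, all 25 had positive fold changes (median 2.89) and 23 lay above sham in every library. Over the 13 expressed in all sham libraries the median was 2.33 and 11 did not overlap. Gfap, the filament protein of astrocytes and the gene with the largest gain in CPM of all, lay at 253, 128 and 109.7 CPM in sham and 1380.3, 800.3 and 1495 CPM after tMCAO (2.90 ± 0.49, SE, edgeR adjusted p 0.0924). Osmr, the receptor of oncostatin M, went from 9.59, 5.95 and 7.52 to 55.8, 33.5 and 81.8 CPM. Tgm1, a protein-crosslinking transglutaminase, was near 0 in sham (0.0977, 0 and 0.329 CPM) and at 74, 13.6 and 47.8 CPM after tMCAO.

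Genes for astrocyte uptake and buffering, the housekeeping side of the same cells, lay mostly the other way. Of 22 tested, 17 had negative fold changes (median −0.23), 4 lay below sham in every library and 1 above, Aldh1l1 (68.6, 62.5 and 47.6 against 97.4, 71.3 and 79.5 CPM), a folate enzyme, and the median was −0.42 without tMCAO replicate 2 and −0.12 without sham replicate 1. Mfge8, a bridge between dying cells and phagocytes, went from 113, 130.5 and 105 to 37.5, 31 and 73.8 CPM, and Gja1, the gap junction protein connexin 43, from 220.3, 193 and 168 to 108, 134 and 71.5 CPM. S1pr1, a sphingosine 1-phosphate receptor, lay at 142, 172 and 165 against 103, 107 and 119 CPM, and the serine and cysteine transporter Slc7a10, opposite Lrp3, at 26.7, 24.1 and 19 against 8.46, 15.6 and 13.2 CPM. Slc1a2, the main glutamate transporter of astrocytes, overlapped between the groups (2551, 3316 and 3385 against 2079.8, 2602 and 1869 CPM), though its loss in CPM was among the 8 largest. Summed over 10 astrocyte markers, the level was 536 to 615 FPKM in sham and 506, 578 and 479 FPKM after tMCAO, so the groups overlapped in the summed markers of this cell type.

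Phagocyte, S100 and annexin genes were higher as groups. Lysosomal and lipid-handling genes had a median of 0.55 over 22 of 24 members, 15 above sham and 0 below. Ctsc, the protease that activates granule enzymes, went from 7.7, 8.23 and 10.2 to 27.8, 17.8 and 49.4 CPM, Cd68, a lysosomal membrane protein of macrophages, from 6.69, 7.01 and 7.8 to 18.1, 15.8 and 35.6 CPM, and the tetraspanin Cd63 from 47.5, 36.2 and 33.4 to 113, 76 and 117 CPM. S100, annexin and galectin genes had a median of 1.04 over 23 of 23 members, 13 above sham and 0 below, and a median of 0.84 over the 20 expressed in all sham libraries. S100a10 (17.8, 20.6 and 19.3 against 56.6, 34.6 and 38.8 CPM) and Anxa2 (13.1, 11.2 and 11.6 against 86.7, 36.3 and 62 CPM), whose proteins form 1 complex that binds plasminogen, were both higher. Lgals3, a galectin of activated microglia, went from 0.475, 0.524 and 0.519 to 8.46, 4.48 and 20.7 CPM. Markers of resting microglia did not share this direction: of 12, 8 had negative fold changes (median −0.61) and 4 lay below sham in every library (P2ry12, Selplg, Siglech and Tmem119), and their summed FPKM ran from 94.5 to 113 in sham and from 79.9 to 175 after tMCAO. That median was −0.28 without sham replicate 2.

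Structural genes outside the neuron were higher too. Actin cytoskeleton and adhesion genes had a median of 0.64 over 27 of 28 members, 17 above sham and 0 below. Tagln2, an actin-bundling protein, went from 9.52, 6.52 and 9.6 to 47.2, 31.2 and 48.6 CPM, Msn, the membrane linker moesin, from 38.5, 38.3 and 36 to 196, 97.2 and 172 CPM, and Flnc, a filamin, from 1.7, 2.59 and 1.85 to 72.9, 26.5 and 38.3 CPM. Genes of the plasminogen system and provisional matrix had a median of 2.23 over 23 of 24 members, 17 above sham and 0 below, and a median of 0.67 over the 11 members expressed in all sham libraries. Plaur, the urokinase receptor, went from 1.13, 1.08 and 1.0 to 20.6, 5.13 and 6.73 CPM. Adamts1, a protease of the matrix proteoglycans, went from 15.1, 9.01 and 15.7 to 155, 79.9 and 61.2 CPM. In each of these 5 genes the lowest tMCAO value was at least 2 times the highest sham value.

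Endothelial genes divided between the activated and the barrier lists. Of 13 genes of the activated endothelium, 8 lay above sham and 0 below (median 1.81, or 0.44 over the 7 expressed in all sham libraries). Angpt2, the angiopoietin that loosens vessels, went from 2.36, 2.2 and 1.8 to 21, 10.1 and 10.6 CPM and lies inside Mcph1 on the other strand, and Cd93, a receptor of sprouting endothelium, went from 10.3, 9.87 and 12.1 to 58.9, 20.7 and 33.8 CPM. Of 16 barrier genes, 3 lay above and 4 below (median 0.16, from 0.10 without tMCAO replicate 2 to 0.30 without tMCAO replicate 3). Those above were Vwf, the platelet-binding factor (44.6, 22.9 and 25.3 against 60.7, 50.4 and 84.6 CPM), and the junction proteins Pecam1 (25.5, 22.6 and 24.4 against 59.1, 36.1 and 51.3 CPM) and Cdh5 (16.2, 17.8 and 17.5 against 57.1, 23.3 and 38 CPM). Below were Slco1c1, the thyroxine transporter of the barrier (44.5, 64.1 and 72.7 against 16.9, 32.1 and 36.1 CPM), and Tek, the angiopoietin receptor (17.9, 19.3 and 17.2 against 10.00, 7.55 and 16.2 CPM), with the transporters Abcb1a (44.8, 41.2 and 34.3 against 24.1, 33.7 and 33.6 CPM) and Slco1a4 (59.9, 59.8 and 56.0 against 20.8, 48.3 and 55.4 CPM, named after its values were seen). Stress-inducible transporters were mostly higher (median 0.48 over 17, 9 above and 0 below), among them Slc14a1, the urea transporter (12.2, 7.16 and 5.83 against 54, 25.1 and 33.6 CPM), and Slc16a3, which exports lactate (3.32, 3.06 and 2.7 against 10.5, 5.6 and 5.32 CPM).

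Postsynaptic genes lay lower as a group, by small amounts. Of 34 postsynaptic scaffolds, kinases and second messenger enzymes, 30 had negative fold changes (median −0.54), 18 lay below sham in every library and 0 above. Shank1, a further scaffold of the excitatory synapse, went from 283, 424 and 369 to 192, 178 and 185 CPM, Dlgap3, which links such scaffolds to PSD-95, from 131, 191 and 216 to 85.9, 104 and 109 CPM, and Itpka, an inositol trisphosphate kinase of dendritic spines, from 117, 147 and 126 to 74, 74.7 and 65.2 CPM. Camk4, a nuclear calcium-dependent kinase, lay at 42.8, 56.1 and 71.6 against 25.8, 22.5 and 27.6 CPM. In all 4 the tMCAO libraries were more alike than the sham libraries, in which replicate 1 was lowest for Shank1, Dlgap3, Camk4 and Itpka. The 10 pan-neuronal markers summed to 1099 to 1137 FPKM in sham and 914 to 1047 FPKM after tMCAO, and 11 markers of cortical excitatory neurons to 304 to 445 FPKM in sham and 233 to 304 FPKM after tMCAO. The 10 markers of inhibitory neurons summed to 323.4, 322.5 and 331 FPKM in sham and to 321.6, 274 and 373 FPKM after tMCAO, and overlapped. The part of these cells in the losses was not tested.

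Ion channels followed the same direction. Of 49 potassium channel genes, 37 had negative fold changes (median −0.24), 13 lay below sham and 0 above. Kcnv1, a modifier subunit of voltage-gated channels, went from 61.5, 127 and 123 to 30.1, 25 and 56.3 CPM, and Kcnq3, a subunit of the M-current, from 203, 211 and 243 to 145, 157 and 147 CPM. Of 33 calcium, sodium and HCN channel genes, 27 had negative fold changes (median −0.42), 10 lay below and 0 above. Cacng3, an auxiliary subunit of AMPA receptors, went from 108, 166 and 154 to 51.3, 48 and 93.9 CPM, and Cacna2d1, an auxiliary subunit of calcium channels, from 101, 95.8 and 114 to 68.9, 67.4 and 78.5 CPM. In both lists no member lay above sham in every library, against 12.4% of all genes. All members of both lists were expressed in all sham libraries. Of all such genes 11.1% lay above and 12.7% below.

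Receptors for transmitters other than glutamate and GABA were closer to the background. Of 31 tested monoamine, acetylcholine, opioid and adenosine receptor genes, 3 lay below sham and 0 above (median −0.35, or −0.15 without sham replicate 3). Adrb1, the beta 1 adrenoceptor, went from 16.1, 21.7 and 23.1 to 9.65, 12.1 and 12.6 CPM, and the alpha 1D adrenoceptor Adra1d, opposite Gm14285, from 14.8, 17.9 and 16.7 to 7.71, 11.8 and 6.33 CPM. The third was the serotonin receptor Htr7 (5.89, 7.40 and 10.01 against 5.10, 5.69 and 4.22 CPM, named after its values were seen). Of 19 neuropeptide genes, 4 lay below and 2 above (median −0.22, but −0.51 over the 17 expressed in all sham libraries, and −0.02 without sham replicate 1 and tMCAO replicate 2). Below were Vip (40.4, 48.4 and 35.5 against 19.6, 13.3 and 25 CPM), Crh (3.59, 5.83 and 5.71 against 2.3, 0.982 and 2.44 CPM) and Cck (92.7, 174 and 119 against 84, 49.5 and 64 CPM), peptides made by cortical neurons, with Cort, and above were Trh and Gal, hypothalamic peptides that reached 28.4 and 10.7 CPM in tMCAO replicate 1 and at most 5.37 and 1.05 CPM elsewhere. Cort, Trh and Gal are named after their values were seen. Pomc, a hypothalamic peptide precursor, reached 14.2 CPM in tMCAO replicate 1 against at most 1.01 CPM in the other libraries, the same library in which Pmch, of the lateral hypothalamus, reached 71.0 CPM. Axon guidance genes had 11 of 50 below and 0 above (median −0.16), among them the ephrin receptor Ephb3 (16.7, 23.5 and 25.1 against 9.41, 13.3 and 10.8 CPM) and the midline repellent Slit2 (43.2, 41.3 and 44.8 against 32.5, 27.9 and 36.1 CPM).

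Feedback genes of the ERK pathway and the Egr family, which ERK signalling induces, were mostly lower. Of 23 tested ERK phosphatase, Sprouty and Egr family genes, 19 had negative fold changes (median −0.41), 10 lay below sham and 1 above, Spry1, an inhibitor of the pathway (8.25, 6.64 and 6.66 against 10.7, 8.76 and 8.74 CPM, named after its values were seen). Spred2, a further inhibitor, went from 96, 115 and 149.96 to 76.5, 71.7 and 81 CPM, Etv1, an ETS factor related to Etv5, from 112, 90.5 and 85.4 to 59.98, 61 and 54.9 CPM, and Dusp6, the phosphatase of ERK, from 42.1, 73.7 and 88.3 to 25.6, 26.3 and 39.4 CPM. Regeneration-associated genes, which neurons switch on after axon injury, divided: 8 of 23 lay above sham and 4 below (median 0.29, or 0.13 without sham replicate 2). Of the 21 expressed in all sham libraries, 6 lay above and 4 below (median 0.16). Tubb6, a tubulin, went from 4.94, 3.92 and 4.29 to 37.7, 18.2 and 28.4 CPM, the small chaperone Hspb1 from 5.25, 3.9 and 6.09 to 105, 28.8 and 46.6 CPM and Jun, a subunit of AP-1, from 59.3, 45.9 and 45.9 to 109, 111 and 81.7 CPM. Below were Cacna2d1, Stmn2, Gap43 and Basp1, of which the last 2 are named after their values were seen. Clock genes did not share a direction (18 tested, median −0.05, which turned positive with limma and without tMCAO replicate 3), with 1 above, Tef, and 1 below, Per2 (45.2, 41.7 and 71.6 against 27.9, 25.1 and 36.5 CPM).

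**Figure D5:**
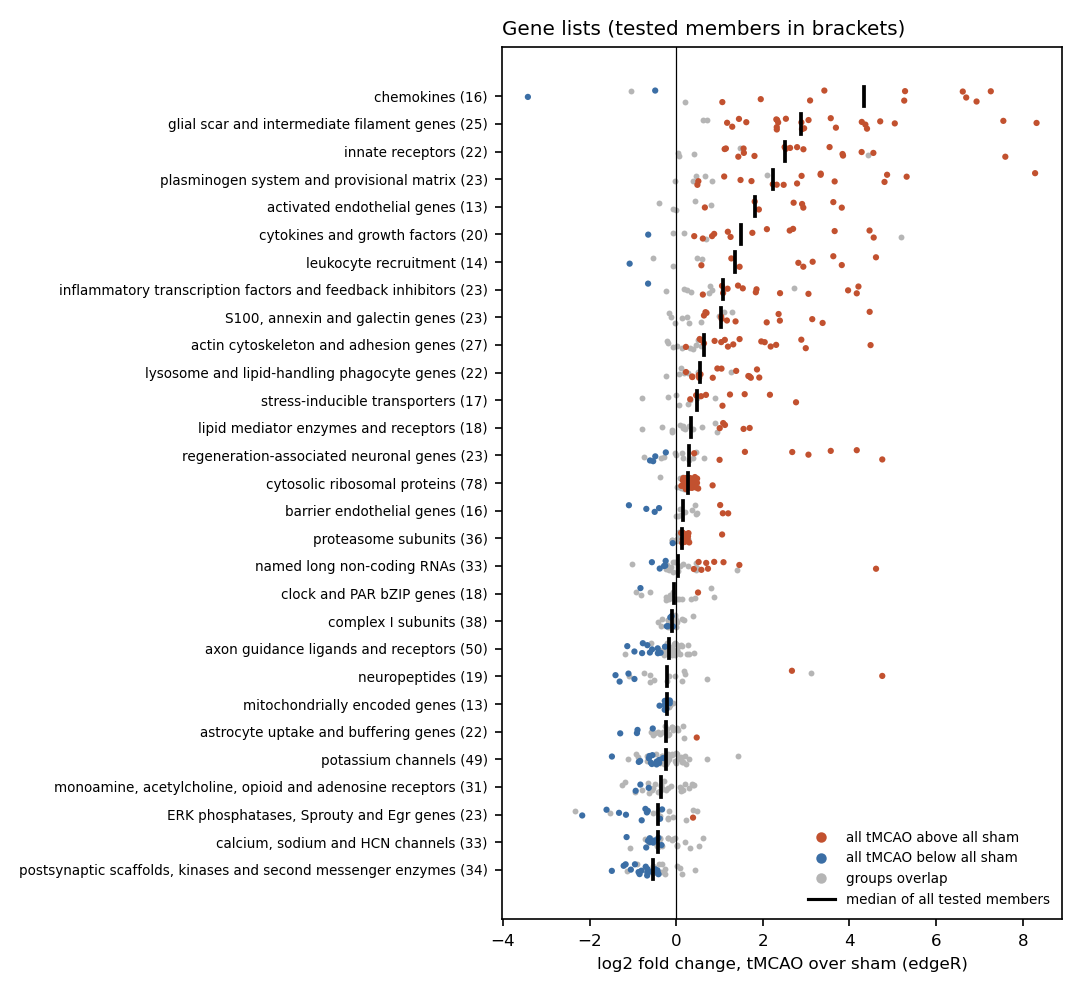
Log2 fold changes (x, edgeR) of the tested members of each gene list (rows, number tested in brackets); orange and blue points have groups that do not overlap, grey points overlap, and black bars are medians. Members with 0 counts in all sham libraries are left out of the points. Immune, scar and matrix lists lie to the right of 0 and neuronal lists lie slightly to the left.

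Of the 1259 long non-coding RNA genes, 50 (3.97%) were higher and 35 (2.78%) lower without overlap and by at least 2-fold, against 3.66% and 0.814% of protein-coding genes. This order depended on the 2-fold rule. Without overlap at any size of change, 8.9% were higher and 10.3% lower, against 13.1% and 11.9% of protein-coding genes. DESeq2 called 1.99% higher and 1.75% lower (adjusted p under 0.05), against 3.72% and 1.79%. AI506816 (mm10, chromosome 5, 23698296 to 23712666, minus strand) lay at 3.53, 5.32 and 5.02 CPM in sham and 24.2, 12.9 and 38.7 CPM after tMCAO. Gas5 (mm10, chromosome 1, 161034422 to 161038539, plus strand), a host of small nucleolar RNAs that accumulates when translation slows, went from 60.8, 51.8 and 55.1 to 93.3, 97.7 and 87.7 CPM (0.73 ± 0.16, SE), and it overlaps those RNAs and Zbtb37. 1110038B12Rik was higher by a like amount, 6.07, 5.71 and 5.98 against 10.9, 11.6 and 11 CPM, and Gm42031 went from 1.13, 0.862 and 0.917 to 3.12, 2.49 and 2.41 CPM. In the list of 38 named long non-coding RNAs, 33 were tested, 9 lay above sham and 5 below (median 0.05, but −0.04 over the 28 expressed in all sham libraries, and −0.03 without sham replicate 1 and tMCAO replicate 2). The small nucleolar RNA hosts Snhg15 (1.83, 2.37 and 2.01 against 5.88, 4.23 and 6.93 CPM) and Snhg1 (8.47, 7.54 and 5.97 against 17.8, 14.2 and 14.8 CPM) were among those above, and H19, an imprinted RNA of fetal tissue, was at 0.167, 0 and 0 against 2.17, 0.872 and 1.47 CPM. Rian, an imprinted RNA of neurons, lay below, at 506, 477 and 541 against 366, 419 and 385 CPM.

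Among the lower long non-coding RNAs, Gm15721 (mm10, chromosome 5, 147949882 to 147957166, minus strand) went from 4.28, 6.54 and 5.92 to 2.39, 2.12 and 1.86 CPM (−1.39 ± 0.24, SE) and C030029H02Rik (mm10, chromosome 7, 136268324 to 136318513, plus strand) from 2.67, 3.6 and 2.4 to 0.492, 1.05 and 0.773 CPM. Gm26645 went from 0.935, 0.929 and 1.56 to 0.0683, 0.277 and 0.201 CPM. In these 3 the groups stood well apart, though Gm26645 had 212 counts in sham and 38 after tMCAO. The next 3, 4930519K11Rik, D030047H15Rik and 4933439C10Rik, lie opposite Kcnma1, Ttyh1 and Zkscan17 and cannot be told apart from them.

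The 8 largest gains in CPM held Gfap and Serpina3n, described above. Of the others, Mt1, a metallothionein that binds zinc and copper, gained from 122, 90.5 and 66.6 to 527, 333 and 256 CPM, and Fth1, the heavy chain of ferritin, from 1506, 1243 and 1261 to 1925, 1919 and 1655 CPM. Slc6a17, a vesicular amino acid transporter, went from 264, 191 and 151 to 666, 334 and 586 CPM, and the groups did not overlap for any of these 3. Of the 16 largest differences in CPM, that of Scd2 rested on 1 library. Scd2, a fatty acid desaturase, lay at 331, 316 and 342 CPM in sham and 327, 324 and 1411 CPM after tMCAO. Without tMCAO replicate 3 the log2 fold change of Scd2 was −0.03. Mitochondrially encoded genes made up 6 of the 8 largest losses, led by mt-Co1 (22162, 24121 and 21975 against 20038, 21579 and 20017 CPM), a subunit of cytochrome oxidase. All 13 of them had negative fold changes (median −0.22) and 9 did not overlap, and nuclear pseudogenes share their sequence. In sham 17 genes had 0 counts in every library and after tMCAO 1 did, the pseudogene Gm18666 with 81 counts in sham. Of the 6 most counted genes absent from sham, Gm20390, Gm49320 and Gm49909 span the named genes Nme1 and Nme2, Map2k7, and Myl12a and Myl12b, and each had 0 counts in 1 tMCAO library as well.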

How the data were processed

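Per the labels' protocols, total RNA from the ischemic hemisphere (5 µg a library) was depleted of ribosomal RNA, cut to inserts of about 300 bp and sequenced as paired reads of 150 bp. Per the submitters' processing notes, reads were handled on the mouse build mm10 with HISAT2 2.0.4, StringTie 1.3.4d and cutadapt 1.9, and DESeq2 and edgeR are listed too, with settings, annotation release and use of strand not given in the sources used here. Per the file headers, the authors deposited 1 table with estimated counts and FPKM for each gene and library. The deposited estimated counts are whole numbers, and FPKM is 0.0001 where a count is 0.

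Of 55385 rows, 16982 that reached 0.5 FPKM in 3 or more of the 9 libraries were tested, and 30.7% of these overlap another tested row, 22.7% on the opposite strand. Counts were scaled by TMM and fitted with edgeR 4.0.16 (R 4.3.3) by its quasi-likelihood test, two-sided, with 1 mean per group over all 9 libraries and Benjamini-Hochberg adjustment over 16982 genes; SE is the ratio of the log2 fold change to √F. The replicate numbers were not used as a block. On simulated data for this comparison (16982 genes, all with the same dispersion of 0.1), edgeR recovered 18 of 100 genes changed 2-fold and 95 of 100 changed 4-fold. The common dispersion of the real data was 0.0963. Dispersion differs between real genes, which the simulation left out, so its recovery does not give the power of this comparison. Alternatives were DESeq2 1.42.0, limma 3.58.1 on log2(FPKM + 0.1, 0.5 or 1), voom, other scalings and filters, a replicate block and each library left out.

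The gene lists and markers were chosen with earlier results of these data known, so no list was tested. The patterns for ribosomal, proteasome and complex I genes were corrected after values were seen, to drop kinases and assembly factors. Named genes are the 15 higher and 15 lower with the smallest edgeR p among those whose groups did not overlap with a mean of at least 1 CPM, 6 and 6 such long non-coding RNAs, the 8 largest gains and 8 largest losses in CPM, up to 6 genes absent from 1 group, and up to 5 genes of each list by p; some of these are not reported here. Promoter letters are from RefSeq (GRCm38.p6).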

Additional observations from a re-analysis of the deposited data

How the results depend on the processing

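At an adjusted p under 0.05 the counts of genes higher and lower, 0 and 0 with edgeR on 9 libraries, were 24 and 6 with the 6 libraries alone, 557 and 279 with DESeq2, 9 and 5 with voom quality weights and 1 and 1 with limma on log2(FPKM + 0.1), and 2 higher with the newer quasi-likelihood form. Leaving out 1 library at a time gave 0 to 81 higher and 0 to 10 lower, the most without celastrol replicate 2 (8 and 5 without sham replicate 1). Same-numbered libraries did not pair (correlations of deviations 0.04, −0.16 and 0.12), and the fit with the replicate block gave 48 and 3. At an unadjusted p under 0.05, leaving out 1 library gave 928 to 1540 higher, the fewest without tMCAO replicate 1, and 625 to 1242 lower, the fewest without sham replicate 2; limma with pseudocounts of 0.5, 0.1 and 1 gave 640, 642 and 638 lower. Genes at least 2-fold apart without overlap numbered 364 higher and 57 lower with limma at 0.5, 246 and 37 at 1, 120 lower at 0.1, 1280 and 534 with no filter, and 1087 and 447 without sham replicate 1 and tMCAO replicate 2 together, a setting chosen after seeing the data. Leaving out 1 library gave 575 to 877 higher and 192 to 443 lower, the most lower genes without tMCAO replicate 3, 350 without sham replicate 1 and 301 without tMCAO replicate 2. Those fits also have a smaller group, and the causes were not tested. Of 48 gene and marker lists with at least 5 tested members, 38 kept the sign of their median in all 22 settings, among them all lists of the report except clock genes, named long non-coding RNAs and 8 marker lists. On limma's log2(FPKM + 1) scale, which understates changes of scarce genes, the chemokine median was 1.44 against 4.34. Totals of 60392960 counts or more leave 3 counts worth 0.0497 CPM at most.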

Other observations

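Beyond the gene groups of the comparison, the machinery of protein synthesis and degradation was higher by small amounts in most of its members. Of 78 tested cytosolic ribosomal protein genes, 77 had positive fold changes (median 0.27) and 50 lay above sham in every library, with none below. Rps15a, of the small subunit, lay at 159, 141 and 134 CPM in sham and 207, 189 and 194 CPM after tMCAO, and Rpl7, of the large subunit, at 190.1, 169 and 158 and 219, 231 and 248 CPM. Many ribosomal protein genes have processed pseudogenes that can share their reads. Of 36 proteasome subunit genes, 31 had positive fold changes (median 0.13), 15 lay above sham and 1 below, Psmd7. Psmb8, the interferon-inducible immunoproteasome subunit, differed most (2.88, 1.94 and 2.73 against 4.78, 3.63 and 7.35 CPM). Complex I subunits of the nucleus lay slightly the other way (38 tested, 32 negative, median −0.09, 0 above and 5 below).

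By the mean level over all 6 libraries, a grouping added after seeing the data, the median log2 fold change was 0.19 over the 799 genes under 0.5 FPKM, 0.05 over the 6382 genes from 1 to 5 FPKM and −0.13 over the 284 genes at 100 FPKM or more, of which 27.8% were positive. By the level in sham, which is also the denominator of the fold change, classes with the same bounds gave 0.69, 0.03 and −0.15. The lowest class holds genes that passed the filter through other groups. Long genes lay lower: among protein-coding genes with at least 1 FPKM in sham, the median was −0.00 for the 1288 genes that span under 5 kb, −0.09 for the 1080 from 100 to 200 kb and −0.20 for the 737 of 200 kb or more, of which 25.4% were positive. Level, span and cell type go together, and their parts were not told apart.

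Some genes stood at least 4-fold above the other 5 libraries in 1 library, among 15366 genes with a mean of at least 1 CPM. There were 22 in tMCAO replicate 1, 9 in tMCAO replicate 2, 6 in tMCAO replicate 3 and 2 to 4 in each sham library. At least 4-fold below the other 5 libraries were 13, 43 and 29 genes in sham replicates 1 to 3 and 34, 17 and 9 genes in tMCAO replicates 1 to 3. In tMCAO replicate 1 they included Vkorc1l1 (107.5 CPM against at most 21.2) and Sumo2 (69.7 against at most 9.31), which are expressed in most cells, beside the hypothalamic gene Pmch. In sham replicate 1 they included Tph2 (39.0 against at most 1.85), the serotonin-synthesizing enzyme of the raphe nuclei.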
